A study of Mus musculus with 14 samples.

Results

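The proteasome genes of mouse hippocampal cultures were followed after 15 h of picrotoxin, a blocker of GABA-A receptors that raises network activity. Members were chosen by name: every counted gene whose symbol is Psma, Psmb, Psmc, Psmd, Psme or Psmg followed by a number, with pseudogene symbols ending in -ps and a digit left out. This gave 49 of 43629 gene identifiers, of which 46 had enough reads to be tested. Chromatin binding of L3mbtl1, a reader of methylated histones, was examined at the same genes.

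RNA came from primary hippocampal cultures of wild-type C57BL6 mice, prepared at postnatal day 0 to 1 and grown for 14 days in vitro. The PTX group (4 libraries) had 100 µM picrotoxin for 15 h, and the CTRL group (4 libraries) had 0.1% DMSO for 15 h. ChIP-seq with an antibody to L3mbtl1 used hippocampus of L3mbtl1-/- mice (3 samples) and wild-type mice (3 samples) on a C57BL6/129 background at postnatal day 7 to 8, and was used here as 1 peak list for all samples. The cultures hold neurons and glia together, the RNA was depleted of ribosomal RNA, and the labels do not say which libraries share a culture.

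The proteasome degrades proteins tagged with ubiquitin. Its barrel-shaped core has outer alpha rings and inner beta rings that hold the proteolytic sites, and a regulatory particle on the end of the barrel has a base, whose ATPases unfold the substrate, and a lid, which removes the ubiquitin chain. In neurons proteasomes are found in dendrites and at synapses, where turnover of receptors and scaffold proteins changes with activity, and subunit genes are jointly controlled by the transcription factor Nfe2l1 when degradation falls short.

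Depth was 14524916 to 19498189 reads counted to genes per library, and proteasome genes took 0.468% to 0.602% of them. Levels below are CPM, each gene's reads as a share of the library's reads on a fixed scale, with library sizes scaled by the trimmed mean of M values. The treatment check of the study, L3mbtl1 itself, had 2.36, 5.60, 1.52 and 2.18 CPM in PTX libraries 1 to 4, against 9.85, 8.81, 10.0 and 11.2 CPM in CTRL libraries 1 to 4 (log2 fold change -1.76, SE 0.34, edgeR adjusted p = 0.00249). The first principal component (60.4% of the variance) separated the groups, and the second (21.0%) set both libraries numbered 1 apart. Of 8 neuron markers 4 rose (Map2, Snap25, Gad1 and Gad2) and 3 fell (Rbfox3, Syt1 and Slc17a7), and their summed level was 5140 to 6650 CPM in PTX libraries and 4336 to 5523 CPM in CTRL libraries. Of 8 astrocyte markers 4 fell and none rose, and their summed level was 4519 to 6246 CPM in PTX libraries and 6198 to 8378 CPM in CTRL libraries. Among all tested genes 19% were called higher and 20.1% lower. Fibroblast markers summed to 681 CPM in PTX library 1 and 761 CPM in CTRL library 1, and to at most 279 CPM in any other library. The part of these shifts in the results below was not tested, and in a culture of several cell types fewer cells and less RNA per cell cannot be told apart.

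Proteasome genes were mostly a little higher in PTX cultures, and 8 of the 12 calls were in the regulatory particle. Of 46 tested genes, 11 rose and 1 fell (edgeR quasi-likelihood test, Benjamini-Hochberg adjusted p under 0.05). The share of members called higher was 23.9%, against 19% of all 15959 tested genes, and the share called lower was 2.17%, against 20.1%. In either direction 26.1% of members were called, against 39.2% of all tested genes. A positive log2 fold change was found for 38 of the 46, and their median was 0.16, against -0.03 for all tested genes. The changes were small: 2 of the called genes, Psmd11 and Psme3, reached 1.5-fold. Libraries did not overlap between groups for 13 genes with PTX above CTRL, against a background of 18.4%, and for 2 genes with PTX below CTRL, against 19.5%. The same-numbered PTX and CTRL libraries deviated together from their group means for numbers 1, 2 and 4 (r = 0.77, 0.57 and 0.61). For number 3 they did so weakly (r = 0.15), and CTRL library 3 correlated more with PTX libraries 2 and 4 (0.21 each). With the replicate number as a block 21 genes were higher, against 25.7% of all genes, and 3 lower, against 29.6%.

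The number of calls varied when single libraries were left out, in fits without the replicate block. Without CTRL library 3 there were 5 genes called higher and without CTRL library 4 there were 7, whereas 20 were called higher without CTRL library 1 and 20 without PTX library 4. The 5 genes Psmc4, Psmc6, Psmd11, Psmd12 and Psme3 kept their call in all 16 alternative settings. Psmb4 and Psmc1 kept it in 15, all but the one without CTRL library 3. PTX library 2 was the highest PTX library for 37 of the 46 genes, although it was highest for 31.5% of all tested genes, and CTRL library 4 was the lowest CTRL library for 28.

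**Figure D1:**
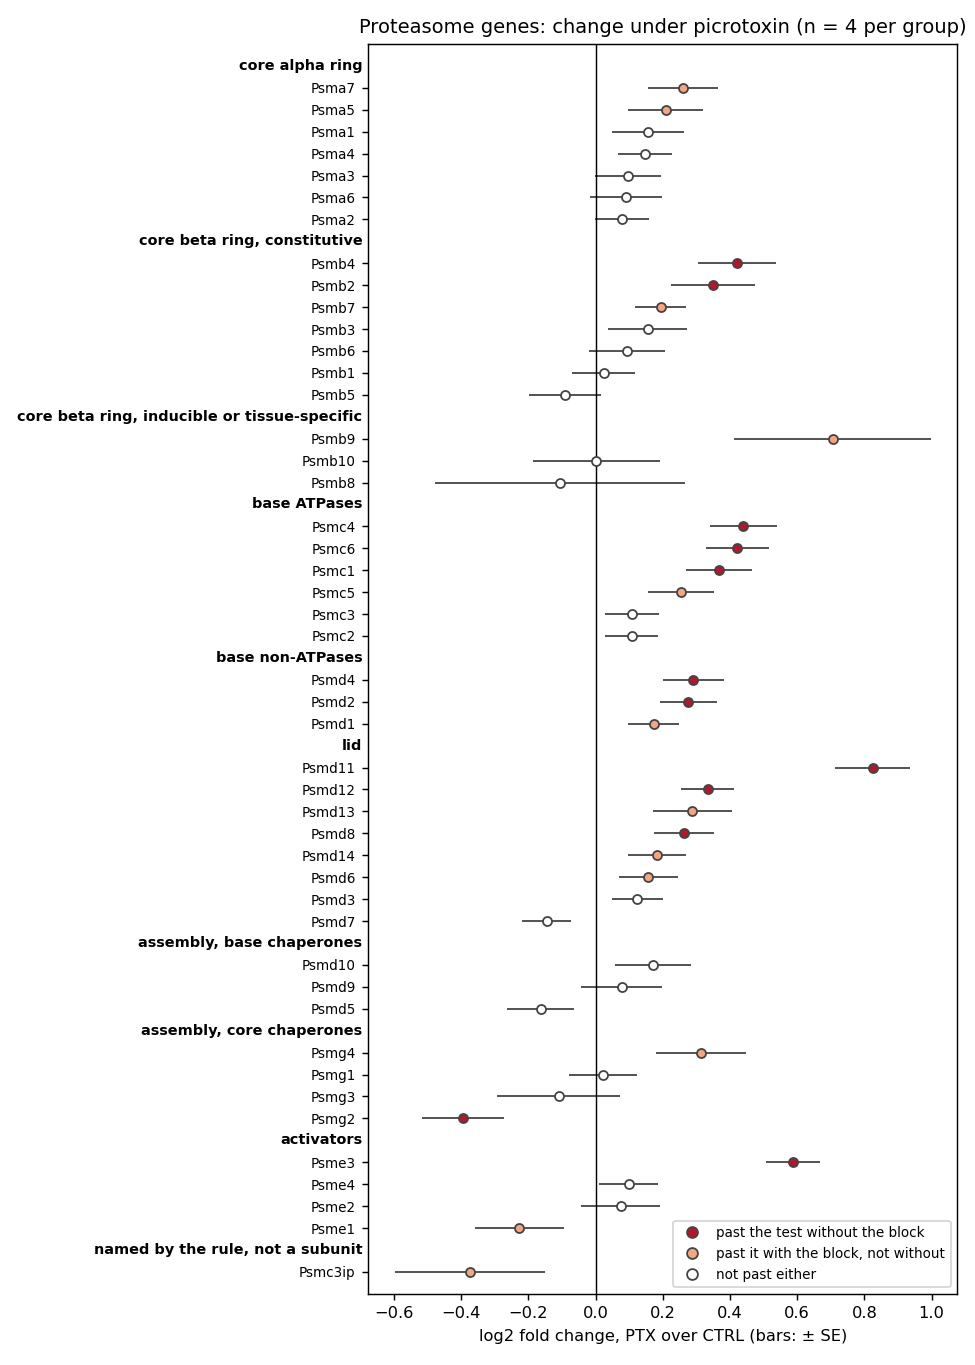
Log2 fold change of PTX over CTRL (horizontal axis, bars ± SE, 4 libraries per group) for the 46 tested proteasome genes, grouped by place in the particle; filled red points passed the edgeR test, orange points passed it with the replicate block but not without, and open points passed neither. Psmd11 (0.82) and Psme3 (0.59) stand highest among the called genes, and Psmg2 (-0.39) is the only called gene left of 0.

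The lid held the largest change. In the lid 3 of 8 genes rose and none fell at this threshold, and with the replicate block 6 rose. Psmd11, a scaffold subunit of the lid that braces its contact with the core, had 61.7, 47.4, 64.7 and 66.1 CPM in PTX libraries 1 to 4, against 34.3, 30.9, 35.2 and 35.2 CPM in CTRL libraries 1 to 4. Every PTX library lay above every CTRL library, and PTX library 2 was the lowest of its group, unlike for most other members. Its level was 1.77-fold higher (log2 fold change 0.82, SE 0.11, 95% interval 0.61 to 1.04, edgeR adjusted p = 0.000276). Psmd12, another scaffold subunit of the lid, had 174.6, 174.7, 171.7 and 172.9 CPM in PTX libraries, against 154, 140.0, 130.6 and 126 CPM in CTRL libraries. The PTX libraries spanned 3.0 CPM and lay above all CTRL libraries (log2 fold change 0.33, SE 0.08, edgeR adjusted p = 0.00767).

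Among the other lid genes, Psmd8 rose by a log2 fold change of 0.26 (SE 0.09, edgeR adjusted p = 0.0395), a call kept in 9 of 16 settings. Psmd13, Psmd14 (the deubiquitinase of the lid) and Psmd6 were not called without the replicate block and were called with it (edgeR adjusted p = 0.00371, 0.0351 and 0.0491), as they were without PTX library 4. Psmd3 had a log2 fold change of 0.12 and was not called. Psmd7, the inactive partner of Psmd14, differed from the rest of the lid in sign: it had 44.7, 47.2, 41.9 and 44.5 CPM in PTX libraries, against 47.6, 51.2, 51.2 and 47.4 CPM in CTRL libraries. Every PTX library lay below every CTRL library, by 0.13 CPM at the nearest, and the gene was not called (log2 fold change -0.15, SE 0.07, edgeR adjusted p = 0.142).

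In the base, 5 of 9 genes rose, all 9 had positive log2 fold changes, and 7 passed with the replicate block. The 6 ATPases form the ring that unfolds substrates. Psmc4 had 137, 156, 141 and 127 CPM in PTX libraries 1 to 4, against 115, 111, 93.9 and 94.2 CPM in CTRL libraries 1 to 4 (log2 fold change 0.44, SE 0.10, edgeR adjusted p = 0.00548). Psmc6 had 279, 279, 294 and 266 CPM in PTX libraries, against 234, 225, 189 and 187 CPM in CTRL libraries (log2 fold change 0.42, SE 0.09, edgeR adjusted p = 0.00517). Neither gene's groups overlapped, and for both CTRL libraries 3 and 4 were the low ones. Psmc1 also rose (212 ± 21.1 CPM in PTX cultures, against 165 ± 15.5 CPM in CTRL cultures, SD, n = 4 each; edgeR adjusted p = 0.0142). Psmc5 was called with the replicate block (edgeR adjusted p = 0.00406) and in 4 other settings, but not without the block (0.0653), and Psmc2 and Psmc3 had log2 fold changes of 0.11 each and no call.

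The non-ATPase genes of the base code for a large scaffold and for ubiquitin-binding subunits. Psmd4, a ubiquitin receptor, had 162, 189, 172 and 157 CPM in PTX libraries, against 149.6, 148, 127 and 131 CPM in CTRL libraries (log2 fold change 0.29, SE 0.09, edgeR adjusted p = 0.0270). Psmd2, a scaffold that binds shuttle proteins, had 488, 454, 456 and 444.2 CPM in PTX libraries, against 415, 400.2, 362 and 344 CPM in CTRL libraries (log2 fold change 0.28, SE 0.08, edgeR adjusted p = 0.0250). In both genes every PTX library lay above every CTRL library, but both calls were lost without CTRL library 3 and without CTRL library 4 (kept in 11 and 12 of 16 settings). Psmd1 was not called without the replicate block (edgeR adjusted p = 0.0973) and was called with it (log2 fold change 0.18, edgeR adjusted p = 0.0336) and in 5 other settings.

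The core held fewer calls. None of the 7 tested alpha ring genes was called, although all 7 had positive log2 fold changes, between 0.08 and 0.26. Blocking by replicate number brought Psma5 and Psma7 past the test (edgeR adjusted p = 0.0329 and 0.00666). Some other settings called them too, and they stayed uncalled in 12 and 8 of 16 settings. At an alpha ring median of 0.15 the group lay close to the median of all members. The alpha ring gene Psma8, which is known for testis-specific proteasomes, had 1, 0, 0 and 2 reads in PTX libraries and 2, 3, 2 and 2 reads in CTRL libraries, and was not tested. A count of 0 allows up to 3 reads.

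Of the 7 constitutive beta genes, 2 rose. Psmb4, a beta ring subunit without protease activity, had 168, 211, 180.5 and 159 CPM in PTX libraries 1 to 4, against 144, 152, 123 and 117 CPM in CTRL libraries 1 to 4 (log2 fold change 0.42, SE 0.12, edgeR adjusted p = 0.0162). Psmb2, also without protease activity, had 67.8, 73.0, 67.2 and 62.6 CPM in PTX libraries, against 59.7, 61.4, 50.1 and 41.2 CPM in CTRL libraries. Its groups were separated by 1.19 CPM, and its edgeR adjusted p of 0.0482 (log2 fold change 0.35, SE 0.12) held in 9 of 16 settings. The catalytic subunits Psmb5, Psmb6 and Psmb7 were not called, with log2 fold changes of -0.09, 0.09 and 0.19. Psmb7 passed under the replicate block (edgeR adjusted p = 0.0228), with RLE scaling, with DESeq2 and in settings that left out libraries. It stayed uncalled in 9 of 16 settings, and its groups did not overlap. Psmb1 and Psmb3 had log2 fold changes of 0.02 and 0.15 and were not called.

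**Figure D2:**
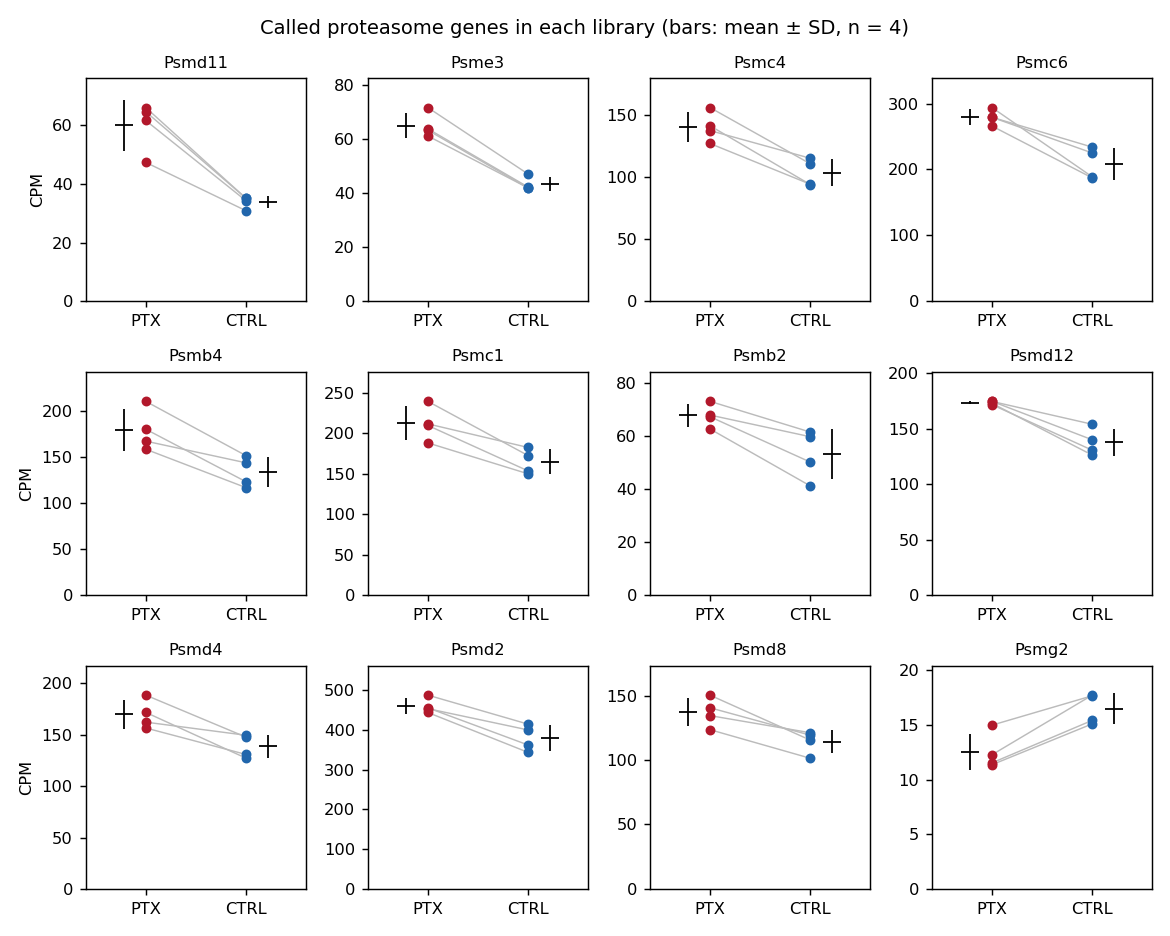
CPM (vertical axes, from 0) of the 12 called proteasome genes in each library, PTX in red on the left and CTRL in blue on the right; grey lines join libraries with the same number, and bars give the mean ± SD of 4. In each panel the 4 lines slope the same way, downward to CTRL except for Psmg2, which had 12.5 ± 1.68 CPM in PTX cultures and 16.5 ± 1.42 CPM in CTRL cultures.

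Inducible beta subunits replace the constitutive catalytic ones in the immunoproteasome, which favours peptides for antigen presentation and is abundant in immune cells. The tested genes for them lay between 0.649 and 12.7 CPM in all libraries. Psmb8 had 2.11, 6.96, 5.45 and 6.55 CPM in PTX libraries 1 to 4, against 3.01, 6.79, 7.49 and 5.36 CPM in CTRL libraries 1 to 4, so that library 1 was the lowest in both groups and the groups overlapped. Psmb9 had 1.28, 2.18, 1.72 and 1.76 CPM in PTX libraries, against 0.649, 0.954, 1.40 and 1.24 CPM in CTRL libraries. Its level was higher in PTX in 4 of 4 pairs but the groups overlapped, and it was not called (log2 fold change 0.71, SE 0.29, edgeR adjusted p = 0.0824; 0.0278 with the replicate block). Psmb10 had 8.74, 12.7, 9.86 and 8.19 CPM in PTX libraries, against 9.38, 12.2, 10.4 and 7.51 CPM in CTRL libraries, and the log2 fold change was 0.0019 (95% interval -0.37 to 0.37). Psmb11, known from the thymus, had 5, 1, 2 and 2 reads in PTX libraries and 2, 4, 2 and 0 reads in CTRL libraries and was not tested.

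The summed level of microglia markers was lowest in library 1 of both groups. Of 12 markers 11 could be tested, 1 of them, Cd68, rose, and none fell; the sum was 46.3, 235, 94.0 and 148 CPM in PTX libraries 1 to 4 and 22.8, 109.7, 121 and 104 CPM in CTRL libraries 1 to 4. The untested marker Tmem119 went the other way, with 2.62 CPM in PTX library 1 and 2.59 CPM in CTRL library 1 and at most 0.449 CPM in any other library. None of the markers was at 0 in any library. Their part in the levels of the inducible subunits was not tested. Of 8 genes of antigen presentation and interferon signalling, 2 rose and none fell: H2-K1, which codes for a class I heavy chain, and the peptide transporter gene Tap1 (log2 fold changes 0.49 and 0.42, edgeR adjusted p = 0.0314 and 0.0352). These calls were kept in 12 and 7 of 16 settings. The counts of both lists are to be read against 19% of all tested genes higher and 20.1% lower, and with the block 25.7% and 29.6%. With the replicate block 3 rose and 2 fell: Irf1 and Nlrc5, regulators of class I genes, had log2 fold changes of -0.38 and -0.53 there (edgeR adjusted p = 0.0091 and 0.0372). The groups did not overlap for H2-K1, at 28.5 to 34.3 CPM in PTX libraries and 15.4 to 26.8 CPM in CTRL libraries, and overlapped for Tap1.

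Among activators, 1 of 4 tested genes rose. Psme3 codes for the activator PA28 gamma, which opens the core without ATP or ubiquitin and is mostly nuclear. It had 71.7, 63.8, 63.3 and 61.2 CPM in PTX libraries 1 to 4, against 47.1, 42.2, 41.9 and 41.9 CPM in CTRL libraries 1 to 4. All PTX libraries lay at least 14.1 CPM above all CTRL libraries (1.50-fold, log2 fold change 0.59, SE 0.08, 95% interval 0.43 to 0.74, edgeR adjusted p = 0.000306). Psme1 and Psme2, whose products form the interferon-inducible activator PA28, had log2 fold changes of -0.23 and 0.07 and were not called; all 4 pairs had less Psme1 in PTX, and under the replicate block its edgeR adjusted p was 0.0159. Psme4, the large ATP-independent activator PA200, had a log2 fold change of 0.10 and no call. The untested gene Psme2b had 1, 2, 1 and 3 reads in PTX libraries and 1, 0, 0 and 1 in CTRL libraries.

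Of the 7 assembly genes 1 fell and none rose. Of the core chaperone genes, Psmg2, whose product pairs with that of Psmg1 to build the alpha ring, fell: it had 11.4, 15.0, 12.3 and 11.5 CPM in PTX libraries 1 to 4, against 15.1, 17.7, 17.7 and 15.4 CPM in CTRL libraries 1 to 4. The groups were separated by 0.12 CPM (log2 fold change -0.39, SE 0.12, edgeR adjusted p = 0.0279), and the call was kept in 9 of 16 settings; it was lost without any of PTX libraries 1, 3 and 4 and without CTRL library 2 or 3. Psmg1 and Psmg3 were not called (log2 fold changes 0.02 and -0.11), and Psmg4 was called higher with the replicate block (log2 fold change 0.31, edgeR adjusted p = 0.00904) and in 3 settings that left out libraries, but not in all 8 libraries without the block (0.0945). None of the base chaperone genes Psmd5, Psmd9 and Psmd10 was called, at log2 fold changes of -0.16, 0.08 and 0.17. The remaining gene taken in by name, Psmc3ip, codes for a partner of meiotic recombinases and is not a proteasome subunit; it had 3.57 to 7.08 CPM in PTX libraries and 5.78 to 8.53 CPM in CTRL libraries and passed, lower, only with the replicate block (edgeR adjusted p = 0.0216).

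By place in the particle, 8 of 17 regulatory particle genes rose (47.1%), against 2 of 14 constitutive core genes (14.3%), and none fell in either. With the replicate block the counts were 13 of 17 and 5 of 14. These counts, and those of each class above, are to be read against all tested genes. Of those 19% were called higher and 20.1% lower, and with the block 25.7% and 29.6%. The summed level of the regulatory particle was 2925, 3043, 2926 and 2764 CPM in PTX libraries 1 to 4, against 2634, 2546, 2315 and 2214 CPM in CTRL libraries 1 to 4. All PTX sums lay above all CTRL sums, 20.1% higher on average. The constitutive core summed to 2029, 2407, 2152 and 2029 CPM in PTX libraries, against 2083, 2085, 1811 and 1757 CPM in CTRL libraries, 11.4% higher on average, with overlapping groups and a lower sum in PTX than in CTRL for the libraries numbered 1.

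The summed level of the regulatory particle over that of the core was 1.44, 1.26, 1.36 and 1.36 in PTX libraries 1 to 4 and 1.26, 1.22, 1.28 and 1.26 in CTRL libraries 1 to 4. This gave means of 1.36 ± 0.073 in PTX cultures and 1.26 ± 0.025 in CTRL cultures (SD, n = 4 each). PTX library 2 lay inside the range of the CTRL libraries, and the difference between the classes was not tested. Gene lengths were not used, so the ratio compares libraries and does not give the relative amounts of the parts. The 7 assembly genes summed to 162 ± 20.1 CPM in PTX cultures and 165 ± 8.99 CPM in CTRL cultures.

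**Figure D3:**
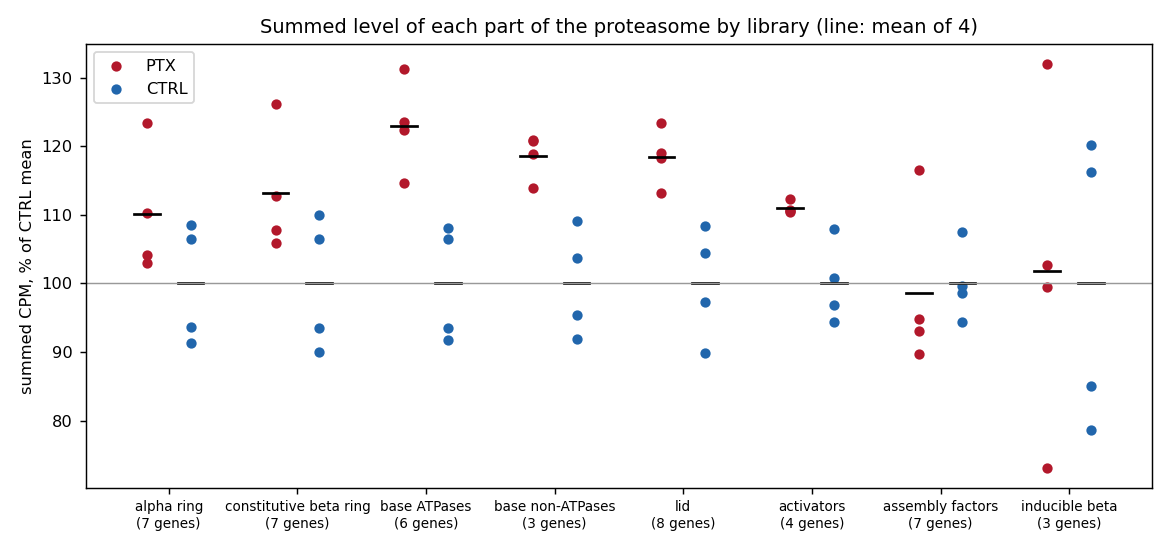
Summed CPM of each class of proteasome genes in each library as a percentage of the CTRL mean (vertical axis, not starting at 0), PTX in red to the left of CTRL in blue, with black lines for means of 4. PTX and CTRL points do not overlap for the base ATPases, the base non-ATPases, the lid and the activators, and overlap for both core rings, the assembly factors and the inducible subunits.

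The sequence around the start sites is shown for the 5 genes whose call was kept in all settings. RefSeq promoter windows of GRCm38.p6, 250 bases before to 50 bases after a start, were matched to 41 of the 49 genes. Each line gives 60 bases before to 40 bases after the start, and capitals mark CTTCCG or its reverse complement CGGAAG, the core of sites bound by ETS-family factors.
Psmd11 (chr11:80428555-80428654, plus strand): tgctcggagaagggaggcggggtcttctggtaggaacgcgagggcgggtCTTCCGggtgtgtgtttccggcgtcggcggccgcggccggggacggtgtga
Psme3 (chr11:101316153-101316252, plus strand): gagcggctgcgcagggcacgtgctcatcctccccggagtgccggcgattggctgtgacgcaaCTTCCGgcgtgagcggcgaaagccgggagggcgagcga
Psmc4 (chr7:28050053-28050152, minus strand): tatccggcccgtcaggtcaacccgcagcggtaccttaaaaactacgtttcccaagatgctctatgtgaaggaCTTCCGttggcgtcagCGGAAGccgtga
Psmc6 (chr14:45329764-45329863, plus strand): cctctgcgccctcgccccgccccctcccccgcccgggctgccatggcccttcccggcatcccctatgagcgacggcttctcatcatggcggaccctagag
Psmd12 (chr11:107479468-107479567, plus strand): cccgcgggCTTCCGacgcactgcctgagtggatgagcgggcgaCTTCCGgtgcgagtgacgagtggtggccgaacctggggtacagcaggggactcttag
The letters CTTCCG were searched because they stood out on reading such windows of the called genes, so the counts describe these sequences and carry no test. On either strand of the whole window they were found in 10 of 10 matched genes that rose, 12 of 29 other tested members, and 32.3% of 11495 tested genes in the table. Within the 100 bases shown they were found in 8 of the 10 and 8 of the 29, and in 19.2% of tested genes. Psmc6 holds them upstream of the part shown here. Psmb2 and Psmg2 had no window in the table.

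The motif TGANNNNGC, a loose form of the element bound by Nfe2l1 and Nfe2l2 with small Maf proteins, was present in 24 of 41 member promoters (58.5%), against 47.9% of the promoters of tested genes. It was in 4 of 10 genes that rose and 19 of 29 other tested members. TGACTCA, bound by AP-1, was in 1 of 41 (4.51% of tested genes), the cAMP response element TGACGTCA in 0 of 41 (3.52%), and CCAAT in 15 of 41 (36.6%, against 42.8%). Both strands were searched, a TGACTCA match followed directly by GC also counts for TGANNNNGC, and a match of letters is not a site.

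Peaks of L3mbtl1 binding lay within 2000 bp of a gene end for 10 of 49 proteasome genes (20.4%), against 26% of 14738 tested genes with a position. The list holds 4677 peaks, each with a score given by the authors. Of the 10 genes, Psmc6 and Psmd11 rose in PTX cultures and Psmg2 fell; the other 7 (Psma7, Psmb1, Psmc2, Psmc3, Psmd13, Psmd5 and Psmg4) were not called. Psmg2 had the best-ranked of these peaks, at rank 149, but its peaks lay at the end shared with Cep76. The peaks of Psma7, Psmb1, Psmc2, Psmc3 and Psmd13 likewise lay within 2000 bp of another gene, namely Ss18l1, Tbp, Dnajc2, Gm13778 and Sirt3. Wild-type and L3mbtl1-/- tissue could not be compared in 1 list.

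At the 7 genes with a RefSeq promoter window the peak stood near the start. Psmb1, Psmc3 and Psmg2 had no window, so the distance from their peaks to a start was not measured. The Psmc3 peak and the best-ranked Psmg2 peak each ran across a gene end. The Psmc6 peak covered bases -548 to -79 from the start and ranked 4626 of 4677. The Psmd11 peak lay inside the gene, from base 329 to base 1033 after the start (chr11:80428944-80429648, mm10), and ranked 1707. The peaks of Psmd13 and Psmd5 ended 82 and 101 bases before the start and ranked 676 and 803. That of Psmc2 ran across its start at chr5:21786747 and lay downstream of its other start, at chr5:21785275. The promoter windows of these 4 genes with a peak over the window are given with the bases under the peak in capitals, to show which part of each promoter the peak covers (RefSeq, GRCm38.p6).
Psmc6 (chr14:45329574-45329873, plus strand): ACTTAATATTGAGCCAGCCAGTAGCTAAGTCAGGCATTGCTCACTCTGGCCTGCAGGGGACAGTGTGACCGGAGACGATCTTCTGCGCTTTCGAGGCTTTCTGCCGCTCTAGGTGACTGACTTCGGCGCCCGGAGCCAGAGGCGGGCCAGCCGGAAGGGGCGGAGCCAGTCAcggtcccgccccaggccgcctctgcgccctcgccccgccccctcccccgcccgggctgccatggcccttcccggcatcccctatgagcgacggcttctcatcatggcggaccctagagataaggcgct
Psmd13 (chr7:140882144-140882443, plus strand): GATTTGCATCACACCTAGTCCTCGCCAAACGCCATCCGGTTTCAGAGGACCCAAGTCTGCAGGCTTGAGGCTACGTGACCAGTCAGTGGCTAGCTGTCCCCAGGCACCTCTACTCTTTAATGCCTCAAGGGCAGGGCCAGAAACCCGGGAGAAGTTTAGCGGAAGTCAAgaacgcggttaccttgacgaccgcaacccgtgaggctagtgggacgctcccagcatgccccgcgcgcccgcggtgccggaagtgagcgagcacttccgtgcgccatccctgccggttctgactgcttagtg
Psmd5 (chr2:34870913-34871212, minus strand): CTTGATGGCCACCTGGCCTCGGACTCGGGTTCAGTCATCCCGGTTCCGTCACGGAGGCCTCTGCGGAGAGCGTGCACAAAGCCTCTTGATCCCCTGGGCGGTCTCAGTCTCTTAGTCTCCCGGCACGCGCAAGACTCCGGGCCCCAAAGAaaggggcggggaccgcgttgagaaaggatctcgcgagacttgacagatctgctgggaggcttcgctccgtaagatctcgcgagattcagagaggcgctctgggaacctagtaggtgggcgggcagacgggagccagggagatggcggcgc
Psmc2 (chr5:21786497-21786796, plus strand): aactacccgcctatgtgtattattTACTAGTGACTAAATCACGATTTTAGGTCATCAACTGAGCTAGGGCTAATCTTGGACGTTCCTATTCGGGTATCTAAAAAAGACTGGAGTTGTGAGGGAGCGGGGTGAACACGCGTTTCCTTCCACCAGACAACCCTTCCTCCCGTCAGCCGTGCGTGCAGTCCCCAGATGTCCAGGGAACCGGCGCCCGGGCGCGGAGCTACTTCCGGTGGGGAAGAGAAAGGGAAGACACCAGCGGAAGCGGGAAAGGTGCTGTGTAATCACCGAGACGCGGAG
The peak covered 172 of the 300 bases for Psmc6, 169 for Psmd13, 150 for Psmd5 and 276 for Psmc2. A match to CTTCCG or CGGAAG lies under the peak at Psmc6, Psmd13 and Psmc2, and Psmd5 has no match in its window. Psmd13 and Psmc2 were not called. Psma7 and Psmg4, not printed here, also had a peak over the window, covering 300 and 20 of its 300 bases. Neither of their windows has a match. The share of genes with a match under a peak was not counted over all tested genes.

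**Figure D4:**
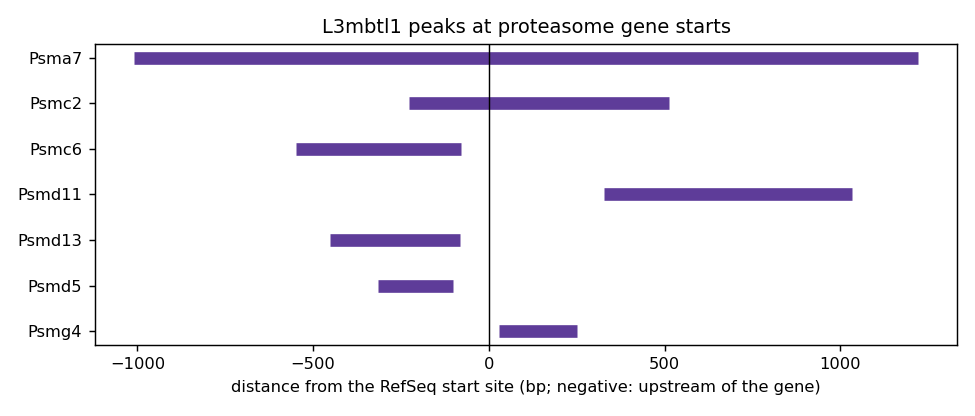
Extent of the L3mbtl1 peak at the 7 proteasome genes with a peak and a RefSeq promoter window (rows). The horizontal axis gives bases from the RefSeq start site, with negative values upstream. Psmb1, Psmc3 and Psmg2 had peaks but no window and are not shown. Psma7 and Psmc2 have peaks across the start, which for Psmc2 is the RefSeq start nearest the peak. The peaks of Psmc6, Psmd13 and Psmd5 end 79, 82 and 101 bases before the start, and those of Psmd11 and Psmg4 begin 329 and 30 bases after it.

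Of 8 genes for subunits and associated factors of the proteasome that the naming rule misses, 2 rose and none fell. They were Akirin2, which guides proteasomes into the nucleus, and Uchl5, a deubiquitinase of the base (log2 fold changes 0.37 and 0.28, edgeR adjusted p = 0.00548 and 0.0286). Adrm1 and Sem1 were not called (log2 fold changes 0.28 and 0.17, edgeR adjusted p = 0.0549 and 0.224). The counts by class above leave all 8 out. The call of Akirin2 was kept in 16 of 16 settings and that of Uchl5 in 9, not without CTRL library 2, 3 or 4 or PTX library 2. With the replicate block 4 rose and 1, Ecpas, fell (log2 fold change -0.23, edgeR adjusted p = 0.00634). All shares of partner genes are to be read against 19% of all tested genes higher and 20.1% lower, and with the block 25.7% and 29.6%; 2 of 8 is 25.0%. Among 8 genes that regulate proteasome transcription, 5 rose (62.5%) and 1 fell (12.5%). Bach1, a repressor that competes at the same elements, had 75.4 to 96.0 CPM in PTX libraries and 44.6 to 45.6 CPM in CTRL libraries (log2 fold change 0.96, SE 0.09, edgeR adjusted p = 2.82e-05). The small Maf genes Mafk and Maff had 36.9 to 48.9 and 22.02 to 39.8 CPM in PTX libraries, against 13.6 to 22.9 and 6.54 to 16.9 CPM in CTRL libraries (log2 fold changes 1.22 and 1.39, edgeR adjusted p = 0.000251 and 0.00275). Ddi2 and Mafg also rose (log2 fold changes 0.27 and 0.30, edgeR adjusted p = 0.0306 and 0.0331), and their calls were kept in 11 and 9 of 16 settings. Ngly1, the deglycosylase that activates Nfe2l1, fell by 0.30 on the log2 scale (edgeR adjusted p = 0.0153), a call kept in 13 of 16 settings.

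Nfe2l1 itself had 210.9, 189, 179 and 216 CPM in PTX libraries 1 to 4, against 197, 217, 206 and 201 CPM in CTRL libraries 1 to 4. The groups overlapped and it was not called (log2 fold change -0.05, 95% interval -0.21 to 0.11, edgeR adjusted p = 0.689). The related factor gene Nfe2l2 was not called either (log2 fold change 0.14, edgeR adjusted p = 0.702).

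Upstream of the proteasome, 1 of 5 genes for ubiquitin and its activating enzymes rose (20.0%) and none fell; with the replicate block 2 rose. Uba6, an alternative activating enzyme, had 219, 119, 173 and 169.7 CPM in PTX libraries 1 to 4, against 68.3, 64.8, 66.9 and 62.7 CPM in CTRL libraries 1 to 4 (log2 fold change 1.38, SE 0.16, edgeR adjusted p = 9.67e-05). Of 10 genes for shuttle and unfolding factors, which bring substrates to the particle, 5 rose and none fell, with Nploc4, Ubqln1 and Ubqln2 at log2 fold changes of 0.40, 0.40 and 0.49 (edgeR adjusted p = 0.00441, 0.00571 and 0.0123). With the replicate block 6 rose and 1, Ubqln4, fell (log2 fold change -0.25, edgeR adjusted p = 0.0232).

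Of 12 genes for ubiquitin ligases studied at synapses, 4 rose (33.3%) and 3 fell (25.0%). Siah2 had the smallest p of those that rose (35.7 ± 4.44 CPM in PTX cultures, against 15.3 ± 2.42 CPM in CTRL cultures, SD, n = 4 each; log2 fold change 1.22, edgeR adjusted p = 9.05e-05). Nedd4l and Mdm2 rose by 0.65 and 0.33 on the log2 scale (edgeR adjusted p = 0.00156 and 0.00792). Fbxo31 fell (25.3 ± 4.45 CPM in PTX cultures, against 47.7 ± 5.19 CPM in CTRL cultures; log2 fold change -0.91, edgeR adjusted p = 0.000405), as did Trim3 and Siah1a (log2 fold changes -0.40 and -0.20, edgeR adjusted p = 0.0126 and 0.0466), and their calls were kept in 12 and 4 of 16 settings. Under the replicate block 4 genes of this list rose and 4 fell. Nedd4 was lower there (log2 fold change -0.26, edgeR adjusted p = 0.00734) but not called without the block.

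**Figure D5:**
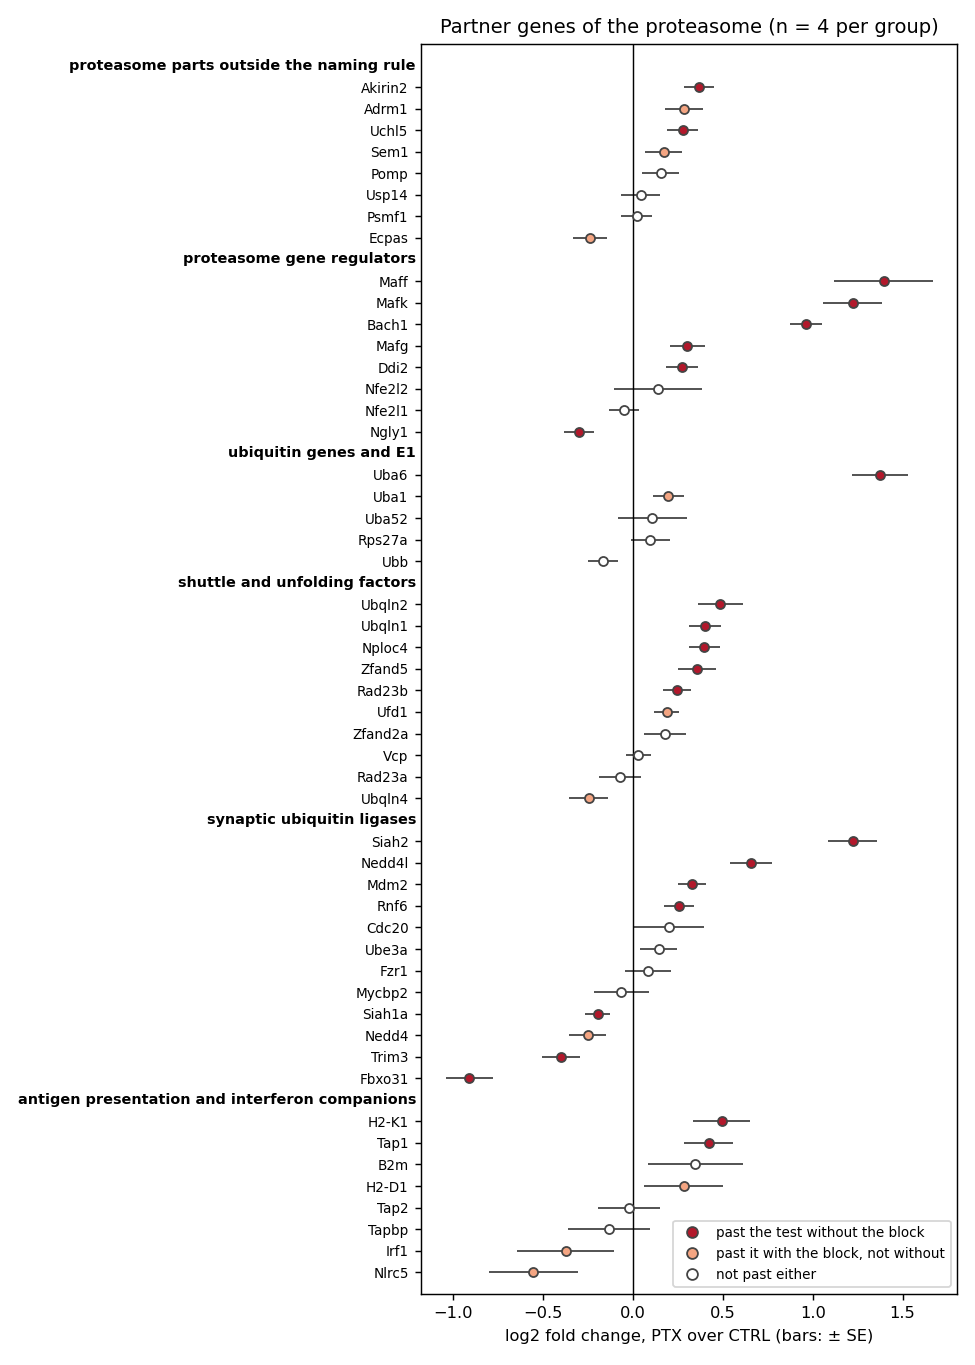
Log2 fold change of PTX over CTRL (horizontal axis, bars ± SE, 4 libraries per group) for 51 partner genes of the proteasome in 6 lists, coloured as in the plot of the members. Maff (1.39) and Uba6 (1.38) lie farthest to the right and Fbxo31 (-0.91) farthest to the left, while Nfe2l1 (-0.05) lies at 0 within its error.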

How the data were processed

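The authors' deposited files were 8 tables of raw read counts per Ensembl gene and 1 list of peaks. The submitters' processing notes name CASAVA 1.8, TopHat2 2.0.9, HTSeq 0.6.1, Bowtie2 2.2.4 and mm10; not given in the sources used here were the strand setting, the peak caller and its threshold. Without a strand setting, reads of overlapping antisense genes cannot be told apart, and reads of processed pseudogenes make counts of near-identical copies uncertain. The deposited peak score has no stated meaning and was used only to rank peaks. The 5 summary lines of each table (no feature 19.9% to 26.8%, not unique 15.2% to 20.5%) were left out of library sizes.

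Genes were filtered with filterByExpr, scaled by TMM and tested with edgeR 4.0.16 (quasi-likelihood F test, R 4.3.3, limma 3.58.1), with Benjamini-Hochberg adjustment over all 15959 tested genes and a threshold of 0.05; the script was tested on simulated data. P-values measure only the spread between these libraries. DESeq2 1.42.0, other scalings, no filter, the replicate block and left-out libraries were alternatives. Deviations from the group means correlated between same-numbered PTX and CTRL libraries at r = 0.77, 0.57, 0.15 and 0.61 for numbers 1 to 4, across genes, all over 0.1, so the numbers were taken to pair the libraries; CTRL library 3, however, correlated more with PTX libraries 2 and 4 (0.21 each) than with PTX library 3. No 2 libraries agreed within sampling noise.

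Peaks were assigned to genes by an overlap of at least 1 bp with 2000 bp on either side of a gene end. No gene lengths were used, so levels of different genes, and summed levels of different parts, cannot be set against each other. The ratio of the regulatory particle to the core was read only between libraries. The members, lists and tests were chosen with earlier results of these data known. Named by rule were, per class, the 2 called genes of largest change, the inducible subunits and untested genes. Of the partners, up to 3 called genes per list and direction were named by smallest p. Ddi2 and Mafg were named in addition, so that every called regulator is given. Psmd7 was singled out after its values were seen. A pair of genes of the partner lists is not reported here and is not counted in them.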

Additional observations from a re-analysis of the deposited data

Results flagged for a closer look

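In 2 of 92 sets of 4 libraries (46 genes in 2 groups) 1 library stood apart from the other 3, where chance gives about 1 in 20. For Psmd14 this was PTX library 2, at 147.5 CPM, while the others of its group had 139.3 to 140.3 CPM. For Psme3 it was CTRL library 1, at 47.06 CPM, while the others of its group had 41.89 to 42.25 CPM; the call of Psme3 was kept without that library.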

How the results depend on the processing

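The count of genes called higher was 11, and with the replicate block 21; 3 instead of 1 were then lower, and the block ended no call. No filter on low counts gave 7 higher and 0 lower. Leaving out 1 library gave 5 to 20 higher and 0 to 2 lower, leaving out both libraries numbered 1 gave 19 higher and 0 lower, and leaving out both numbered 2, chosen after seeing the data, gave 7 higher. The cause was not tested. RLE scaling, upper-quartile scaling, library totals and DESeq2 gave 14, 10, 8 and 15 higher and 1 lower each. No called gene changed sign in any setting. Uncalled genes near 0 did. Upper-quartile scaling turned Psmb1, Psmb10 and Psmg1 to -0.0098, -0.031 and -0.012; library totals gave -0.031, -0.052 and -0.033. Without a filter Psmb10 was -0.0073, and without both libraries numbered 2 Psmb10, Psmd9 and Psmg1 were -0.029, -0.019 and -0.032. Without 1 library, log2 fold changes ran from -0.013 to 0.20 for Psma6, -0.034 to 0.12 for Psmb1, -0.15 to 0.0053 for Psmb5, -0.0056 to 0.19 for Psmb6, -0.28 to 0.20 for Psmb8, -0.14 to 0.15 for Psmb10, -0.039 to 0.20 for Psmd9, -0.012 to 0.11 for Psmg1, -0.19 to 0.037 for Psmg3 and -0.015 to 0.20 for Psme2. Genes with a peak numbered 9 at 1000 bp, 13 at 5000 bp, 7 for peaks at or above the median score and 10 when peaks had to lie mostly inside, against 10. Counts of 5 reads or fewer limit Psma8, Psmb11 and Psme2b.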
